A study of Homo sapiens with 54 samples.

Results

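Induced pluripotent stem cells (iPSCs) of the line 201B7, grown on a layer of mouse embryonic fibroblasts (MEF feeders), were set against iPSCs of the line 253G1, grown without feeders in the defined E8 Medium. Every culture whose title names one of these lines was used, 3 cultures per line and 6 of the 27 cultures in the series. Each culture was hybridised to 2 one-colour Agilent arrays, so that 12 of 54 arrays entered the comparison. The question was which autosomal genes differed between iPSCs on feeders and iPSCs in defined medium, and whether the same genes differed between human embryonic stem cells (ESCs) grown in these kinds of medium.

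The series asked whether FGFC, a chimera of FGF1 and FGF2, can replace basic FGF (bFGF) in the culture of human pluripotent stem cells. 201B7 was grown on MEF treated with mitomycin C, in a medium with serum replacement and 2-mercaptoethanol, at 10 ng/mL FGF, and was sampled as a pre-culture in bFGF and after 50 days in bFGF or in FGFC. 253G1 was grown on Matrigel in E8 Medium at 100 ng/mL FGF and was sampled as a pre-culture in bFGF and after 36 days in bFGF or in FGFC. The study's E8 Medium held added TGF-beta 1, and its recipe for the 201B7 medium names none, so that this too differs between the groups. The passage numbers were 30 for the pre-culture and 40 for the long-term cultures of 201B7, and 43 and 52 for those of 253G1. Both lines were derived from human dermal fibroblasts with retroviral factors, and MYC was among the factors for 201B7 but not for 253G1. Each line is 1 clone. Line, medium, feeders, FGF dose and passage all differ between the groups, and each line was hybridised on slides of its own, so that these factors cannot be told apart. The 3 cultures of a line are its 3 FGF arms with 1 culture each, and the spread between them therefore includes any effect of time and of the kind of FGF.

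Human pluripotent cells in the primed state are kept undifferentiated by FGF, which acts through the ERK kinases, and by Nodal, Activin or TGF-beta, which act through SMAD proteins. DUSP6, SPRY4 and related genes are switched on by ERK and feed back to restrain it, and LEFTY1, LEFTY2 and CER1 do the same for Nodal. Feeder cells secrete matrix and growth factors, and serum replacement brings albumin and the lipid bound to it, which E8 Medium lacks.

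Signals are given as the log2 of the processed signal minus the array's 75th percentile, averaged over the 2 arrays of a culture, so that 0 is the 75th percentile of an array and 1 unit is a 2-fold step. Differences are 201B7 minus 253G1 on this scale. A probe was called when limma's adjusted p was under 0.05, the lines differed by 2-fold or more and the probe was well above background on all 6 arrays of the higher line. The duplicate arrays of a culture correlated at r = 0.994 to 0.998. Between 64.3% and 70.8% of probes were well above background on the 201B7 arrays and between 56.2% and 61.7% on the 253G1 arrays. The 75th percentile itself was lower for 201B7 (signals of 182 to 632, with 182 and 234 for the pre-culture) than for 253G1 (623 to 874). The part of this difference in brightness in the results was not tested. All 6 markers of pluripotent cells chosen for the check (POU5F1, SOX2, NANOG, LIN28A, TDGF1 and DNMT3B) were well above background on all 12 arrays, and limma called none of them different.

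In all, 2217 of 40836 autosomal probes (5.43%) were called, 1615 higher in 201B7 (3.95%) and 602 lower (1.47%). Taken by gene, with the brightest probe standing for each gene, 1022 of 18897 genes (5.41%) were called, 624 higher (3.3%) and 398 lower (2.11%). The counts of the gene groups below are to be read beside these shares. The numbers of called probes and genes depended on single cultures. Without the 201B7 bFGF culture limma called 0 probes, although 9696 had an unadjusted p under 0.05; without 1 of the 253G1 cultures it called 282 to 463, and without the 201B7 FGFC culture 4393. With the slide as a random block it called 190 probes and 108 genes. Of 97 genes chosen by a rule of size and by list, 93 were called, 57 of them lost the call with the slide as a random block and 36 after the normexp correction, which also gave smaller folds for dim genes such as LMO3 (-1.25 in place of -4.15). Folds given as "about" are for genes not well above background on any array of the dimmer line. The signal of that line was raised, where it lay lower, to the lowest signal well above background on the array. These folds come from culture means after that step and are neither limma's fitted differences nor lower bounds. An adjusted p printed beside such a fold belongs to the fitted difference. The folds hold for the scaling to the 75th percentile. A rule that rests on no estimate of the spread, under which every culture of one line lay at least 2-fold beyond every culture of the other, held for 325 genes higher in 201B7 (1.72%) and 142 lower (0.751%), and all 467 of them were also called. The median difference over all genes was -0.24. It was -0.16 after quantile normalization and 0.13 after the normexp background correction, so that differences of this size depend on the scaling.

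**Figure D1:**
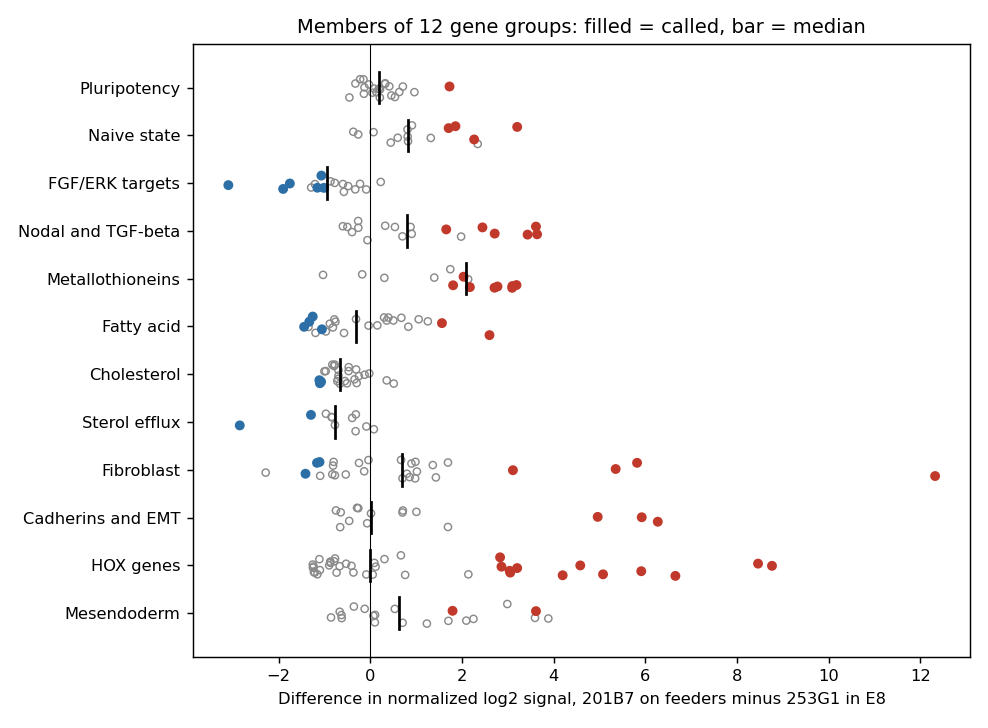
Difference in normalized log2 signal between 201B7 on feeders and 253G1 in E8 Medium (x axis) for the measured members of 12 gene groups (rows); filled points were called, open points were not, and the bar is the median of the group. Called members of the FGF/ERK group lie to the left of 0, those of the Nodal, metallothionein and HOX groups lie to the right, and DCN is at 12.33.

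Of 18 measured targets and feedback inhibitors of FGF/ERK signaling, 6 fell in 201B7 on feeders (DUSP6, DUSP5, SPRY4, MYC, IER3 and PHLDA1), 0 rose and 12 did not pass the test, and the median of the group was -0.94. DUSP6, the phosphatase that inactivates ERK, was at 1.76, 1.90 and 1.50 in the pre-culture, bFGF and FGFC cultures of 201B7, and at 5.07, 4.94 and 4.45 in those of 253G1. The lines did not overlap, and the FGFC culture was the lowest within each line. The difference was -3.10 (SE 0.23, n = 3 cultures per line, limma, adjusted p = 0.00606), and it stayed past the threshold with the slide as a random block (adjusted p = 0.0287).

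DUSP5, another phosphatase of the family, was at -1.93, -1.59 and -1.66 in 201B7 and at 0.24, 0.20 and 0.09 in 253G1, a difference of -1.91 (adjusted p = 0.00795). SPRY4, an inhibitor of receptor tyrosine kinase signaling, was at 0.02, 0.36 and 0.06 in 201B7 and at 2.08, 1.83 and 1.81 in 253G1, a difference of -1.76 (adjusted p = 0.0101). For both genes all cultures of 201B7 lay below all those of 253G1. A second probe of SPRY4, well above background on all 6 arrays of each line, differed by 0.12 (limma, adjusted p = 0.814). MYC, IER3 and PHLDA1 fell by 1.16, 1.07 and 1.01. With the slide as a random block the calls of DUSP6, DUSP5 and SPRY4 were the 3 that remained in the group. When any one culture other than the 201B7 bFGF culture was left out, between 3 and 8 members were called lower and 0 were called higher.

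Of 11 measured FGF ligands and receptors, 2 rose and 1 fell, all 3 calls were lost after the normexp correction, and FGF4 was the 1 that remained with the slide as a random block. FGF19 fell by 1.56 (adjusted p = 0.0145), and by 0.51 after the normexp correction. FGF4 was not well above background on any array of 253G1. It was higher by 1.86 in 201B7 (adjusted p = 0.00838), by 2.59 with the first array of each culture and by 1.12 with the second. FGFR3, one of the FGF receptors, rose by 1.40 (adjusted p = 0.0202). Of 12 measured immediate-early genes, 1 was called. That gene, FOS, was at -2.03, -1.74 and -1.85 in 201B7 and at -0.23, 1.42 and 0.76 in 253G1, a difference of -2.52 (adjusted p = 0.0204, 0.0735 with the slide as a random block).

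Of 18 measured ligands, inhibitors and targets of Nodal and TGF-beta, 6 rose in 201B7 on feeders, among them LEFTY2, CER1, INHBA, LEFTY1 and NODAL, 0 fell and 12 did not pass the test, with a median of 0.79. LEFTY2, a secreted inhibitor of Nodal, was at 2.44, 2.19 and 2.03 in 201B7 and at -1.21, -1.61 and -1.43 in 253G1. No culture of 253G1 came within 3 units of a culture of 201B7. The difference was 3.64 (SE 0.20, adjusted p = 0.00554).

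LEFTY1 was at 5.50, 5.51 and 5.08 in 201B7 and at 3.36, 2.97 and 2.42 in 253G1, a difference of 2.45 (adjusted p = 0.0113). NODAL, the ligand, was at 2.72, 2.36 and 1.70 against 0.94, 0.20 and 0.69, a difference of 1.66 (adjusted p = 0.0305). Its lowest culture of 201B7 still lay above the highest of 253G1. CER1, a secreted antagonist of Nodal, was at -2.26, -1.27 and -1.75 in 201B7 and did not exceed background clearly on any array of 253G1. It was about 12.2-fold higher (adjusted p = 0.00801), and its difference of 3.61 was 1.84 after the normexp correction. INHBA, the Activin A subunit, was at 3.78, 2.24 and 1.02 in 201B7 and at -0.60, -0.68 and 0.18 in 253G1, with a wide spread within 201B7 and an adjusted p of 0.0481. With the slide as a random block 2 of the 6 remained called, LEFTY2 and CER1. Leaving out any one culture other than 201B7 bFGF gave 3 to 8 called members.

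Metallothioneins, small proteins that bind zinc and copper, formed the group with the highest median, 2.08. Of 14 measured members (12 metallothioneins, the zinc exporter SLC30A1 and the metal-sensing factor MTF1), 8 rose and 0 fell. MT1H was at 6.16, 4.54 and 3.36 in 201B7 and at 1.71, 1.49 and 1.55 in 253G1, a difference of 3.10 (SE 0.64, adjusted p = 0.0342). MT1G was at 2.65, 1.76 and 1.37 against -0.21, -2.01 and -1.57, a difference of 3.19 (adjusted p = 0.0216). MT2A was at 4.44, 3.36 and 2.85 against 1.96, 1.63 and 1.63, a difference of 1.81 (adjusted p = 0.04). In each of the 3 genes the pre-culture was the highest and the FGFC culture the lowest of the 201B7 cultures, and all of them lay above 253G1. MT1E, MT1M, MT1F, MT1L and MT1B rose by 2.03 to 3.09. MT1X and MT1A differed by 1.39 and 2.13 but were not called (adjusted p = 0.0639 and 0.0563), MT4 did not rise well above background on any of the arrays, and SLC30A1 (-0.18) and MTF1 (0.30) were not called. None of the 8 calls remained with the slide as a random block, and leaving out any one culture other than 201B7 bFGF gave 0 to 10 calls. These genes are near-identical neighbours on chromosome 16, and a probe of one may bind the transcripts of another.

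The promoters of the metallothioneins are shown because these genes moved together and are known to be switched on by MTF1 through metal response elements. RefSeq promoter windows on GRCh38.p14 were matched for 5 metallothioneins, and the 250 bases before the start of MT2A (chr16:56608334-56608583), MT1B (chr16:56651636-56651885) and MT1H (chr16:56669564-56669813), all on the plus strand, are printed 5′ to 3′. Capitals mark matches to the element's core, searched as TGCACNC and TGCGCNC on both strands.
MT2A: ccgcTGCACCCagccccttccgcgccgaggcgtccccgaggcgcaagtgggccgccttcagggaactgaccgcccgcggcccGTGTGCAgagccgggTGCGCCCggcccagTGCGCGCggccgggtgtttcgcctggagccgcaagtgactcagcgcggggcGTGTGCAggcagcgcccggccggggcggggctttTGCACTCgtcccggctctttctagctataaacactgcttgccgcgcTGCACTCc
MT1B: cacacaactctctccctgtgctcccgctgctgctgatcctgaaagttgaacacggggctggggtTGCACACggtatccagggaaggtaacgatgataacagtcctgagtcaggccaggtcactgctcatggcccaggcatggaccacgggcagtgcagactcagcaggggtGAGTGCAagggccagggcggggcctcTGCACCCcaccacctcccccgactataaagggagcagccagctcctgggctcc
MT1H: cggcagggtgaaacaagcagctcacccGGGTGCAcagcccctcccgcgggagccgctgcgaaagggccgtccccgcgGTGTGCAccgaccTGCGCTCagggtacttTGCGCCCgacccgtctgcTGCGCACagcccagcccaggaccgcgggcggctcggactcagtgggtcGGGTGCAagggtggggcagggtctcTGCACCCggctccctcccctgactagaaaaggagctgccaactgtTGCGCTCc
The MT2A window holds 7 matches, that of MT1B 3 and that of MT1H 8. MT1X and MT4, which were not called, have 4 and 3 matches in their windows. Of 35116 promoter windows of this length, 24.8% hold at least 1 match and 1.58% at least 3. A match is a run of letters and not a measured binding site.

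Genes that make fatty acids and cholesterol were lower in 201B7 on feeders wherever they were called. Of 25 measured genes of fatty acid metabolism, 4 fell (SREBF1, FADS2, FASN and ELOVL6) and 2 rose (PDK4 and CPT1A), with a median of -0.31 that turned to 0.26 after the normexp correction. SREBF1, the master regulator of fatty acid synthesis, was at 2.98, 3.04 and 3.11 in 201B7 and at 4.56, 4.27 and 4.66 in 253G1, a difference of -1.45 (SE 0.19, adjusted p = 0.0136). The 3 cultures of 201B7 lay close together and all were below 253G1. FASN, the fatty acid synthase, was at 3.02, 3.40 and 3.49 against 4.59, 4.49 and 4.62, a difference of -1.26. FADS2, a desaturase, and ELOVL6, an elongase, fell by 1.33 and 1.06.

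The 2 genes of the group that rose act in the burning of fat. CPT1A, which carries fatty acids into mitochondria, was at -0.74, -0.57 and -0.50 in 201B7 and at -2.25, -1.84 and -2.40 in 253G1, a difference of 1.56 (adjusted p = 0.0147). PDK4, a kinase that holds back the use of glucose, rose by 2.60 (adjusted p = 0.00606), and its levels in 201B7 were -3.30, -3.31 and -3.30. It was well above background on 1 array of 253G1. Of the 6 called genes, 1 remained called with the slide as a random block, PDK4. Without any one culture other than 201B7 bFGF, 0 to 8 members were called lower and 1 to 3 higher.

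Of 25 measured genes of cholesterol synthesis and uptake, 3 fell, among them ACAT2 and FDPS by 1.11 and 1.08, and 0 rose, with a median of -0.66. None of these 3 calls remained after quantile normalization or with the slide as a random block. Among 11 measured genes of sterol efflux and LXR targets, ABCG1 and MYLIP fell and 0 rose. ABCG1, which exports cholesterol, was at -4.44, -5.00 and -4.35 in 201B7 and at -1.77, -1.82 and -1.65 in 253G1, a difference of -2.85 (SE 0.23, adjusted p = 0.00606, 0.0367 with the slide as a random block). After the normexp correction the difference was -1.18 and was not called (adjusted p = 0.0866). MYLIP, which marks the LDL receptor for breakdown, fell by 1.30.

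**Figure D2:**
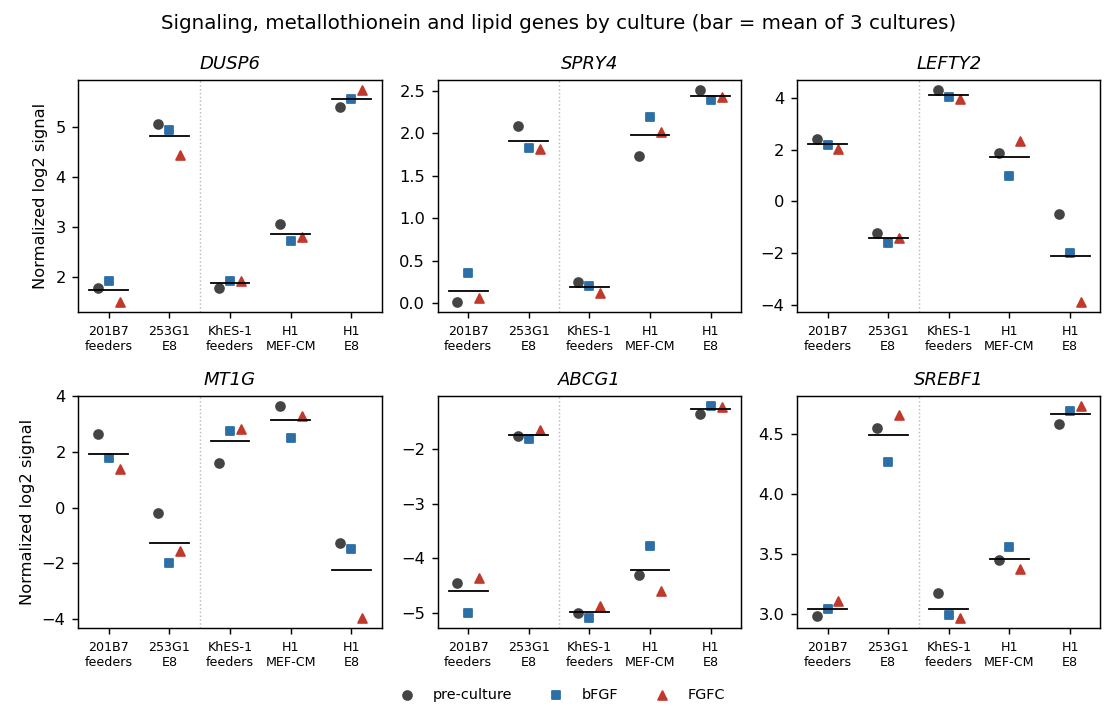
Normalized log2 signal (y axis, scale set for each gene) of DUSP6, SPRY4, LEFTY2, MT1G, ABCG1 and SREBF1 in the 3 cultures of 201B7 and of 253G1 and, right of the dotted line, of 3 ESC systems (KhES-1 on feeders, H1 in MEF-conditioned medium (MEF-CM) and H1 in E8 Medium); symbols are cultures and bars are means of 3 cultures. The 201B7 cultures lie on one side of the 253G1 cultures in all 6 genes, DUSP6 at 1.50 to 1.90 against 4.45 to 5.07.

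The core genes of pluripotency differed little. Of 22 measured members, 1 rose (PRDM14) and 0 fell, and the median was 0.19. POU5F1 was at 8.67, 8.59 and 8.71 in 201B7 and at 8.37, 8.30 and 8.34 in 253G1, a difference of 0.32 (adjusted p = 0.181) that turned to -0.11 after quantile normalization. A second probe of POU5F1, well above background on all 12 arrays, differed by -0.51 (adjusted p = 0.0887). SOX2 differed by 0.41 (adjusted p = 0.218) and NANOG by -0.03 (adjusted p = 0.92). The NANOG cultures overlapped, at 3.81, 4.29 and 4.32 in 201B7 and at 4.29, 4.04 and 4.18 in 253G1. GAPDH, a reference gene, differed by -0.34 (adjusted p = 0.192). PRDM14, a regulator of pluripotency, was at 0.76, 0.76 and 0.54 in 201B7 and at -0.91, -1.53 and -0.67 in 253G1, a difference of 1.72 (adjusted p = 0.0182, 0.0898 with the slide as a random block).

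Genes of the naive state, an earlier form of pluripotency, were higher in 4 of 15 measured cases (KLF4, DPPA3, FGF4 and KLF5) and lower in 0, with a median of 0.82. KLF4, one of the factors put into both lines, was at 0.07, -1.47 and -2.27 in 201B7 and at -4.89, -4.14 and -4.25 in 253G1, a difference of 3.20 (SE 0.57, adjusted p = 0.0254). All cultures of 201B7 lay above all of 253G1, and they differed from each other by more than 2 units. DPPA3 was about 4.78-fold higher in 201B7, and KLF5 rose by 1.71 with 253G1 well above background on 2 of 6 arrays. None of the 4 was called after the normexp correction and 1 with the slide as a random block, FGF4.

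The 12 largest fitted rises in 201B7, several of them against signals at background in 253G1, were in DCN, HOXC6, HOXB6, TM4SF1, NR2F2, FGF7, INHBB, FILIP1L, PEG3, HIC1, CSF1 and CALB2. DCN encodes decorin, a matrix proteoglycan of fibroblasts. It was at 7.08, 6.28 and 4.85 in the pre-culture, bFGF and FGFC cultures of 201B7 and at -6.58, -5.80 and -6.40 in 253G1, where it was well above background on 1 of 6 arrays. The fitted difference was 12.33 (SE 0.55, adjusted p = 0.00352), and 9.33 after the normexp correction.

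HOXC6, a homeobox gene of the trunk, was at 3.79, 2.62 and 1.32 in 201B7. It was not well above background on any array of 253G1 and was about 435-fold higher (adjusted p = 0.00588). HOXB6 was at 3.40, 2.07 and 0.50 and was about 348-fold higher (adjusted p = 0.00606). NR2F2, a nuclear receptor of mesenchyme, was at 2.96, 1.95 and 0.54 and was about 247-fold higher. All 3 genes were below background in 253G1, and among the 201B7 cultures the pre-culture was the highest and the FGFC culture the lowest. FGF7, an FGF that mesenchyme makes for epithelia, was about 161-fold higher, and HIC1, a transcriptional repressor, about 122-fold.

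ZEB1 and ZEB2, repressors of the epithelial programme, were also higher in 201B7. ZEB1 was at 2.57, 1.29 and 0.06 in 201B7 and at -5.27, -4.29 and -5.33 in 253G1, a difference of 6.27 (adjusted p = 0.00838). ZEB2 was not well above background in 253G1 and was about 60.7-fold higher. CDH11, a cadherin of mesenchyme, was at 4.17, 2.93 and 1.62 against -1.83, -2.15 and -2.20, a difference of 4.96 (adjusted p = 0.0116). These 3 genes were the called ones among 15 measured cadherins and regulators of epithelial to mesenchymal transition, and all 3 remained called with the slide as a random block. PDGFRA, a receptor of mesenchymal progenitors, was at 2.77, 1.88 and 0.60 against -4.34, -4.47 and -3.42, a difference of 5.82 (adjusted p = 0.00801). TWIST1, a mesenchymal transcription factor, rose by 5.35, FN1 (fibronectin) by 3.72 and NID1 (nidogen) by 2.96. LOX, a collagen crosslinking enzyme, was about 8.64-fold higher. TM4SF1, a membrane protein, rose by 8.05 with the probe used here, while a second probe of it was called in the opposite direction (-1.23).

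The genes of fibroblasts did not move as one group. Of 28 measured members, 4 rose (DCN, PDGFRA, TWIST1 and LOX) and 3 fell (SPARC, S100A4 and PDGFRB, by 1.42, 1.17 and 1.11), with a median of 0.68. The collagen gene COL3A1 and LUM, which encodes another matrix proteoglycan, were not well above background on any of the 12 arrays, together with FBN1, PRRX1 and FAP. COL1A1 differed by 0.80 (adjusted p = 0.145), COL1A2 by 1.02 (0.0779), VIM by 0.70 (0.293) and THY1 by -0.14 (0.803). Over the 7 measured markers of fibroblasts or feeder cells, the log2 of the summed level was 7.99, 7.15 and 6.23 in 201B7 and 5.91, 6.04 and 5.96 in 253G1. The sum was taken on the linear scale, where the brightest genes weigh most. DCN was the 1 of these 7 markers that was called, and the sum without DCN was not taken, so that it does not describe the markers as a set. The sum was highest in the pre-culture and lowest in the FGFC culture of 201B7, as were DCN, PDGFRA, TWIST1 and LOX. Whether RNA of feeder cells or of differentiated human cells had a part in these values was not tested, and in bulk RNA more cells of a type cannot be told apart from more RNA per cell. With the slide as a random block 2 members of the fibroblast group were called, and without any one culture other than 201B7 bFGF 3 to 8 were called higher and 0 to 3 lower.

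Of 38 HOX genes with a probe, a list chosen after their values were seen, 12 were called higher and 0 lower. The median of the 38 was -0.02. The called genes were HOXA5, HOXB2, HOXB5, HOXB6, HOXB8, HOXC4, HOXC5, HOXC6, HOXC8, HOXC9, HOXC10 and HOXD9, so that 6 lay in the HOXC cluster on chromosome 12 and 4 in the HOXB cluster on chromosome 17. Another 11 HOX genes were below background on all 12 arrays, and 14 of the 38 were well above background in either line. HOXC8 was at 1.53, 0.36 and -0.78 and HOXC4 at 0.92, -0.35 and -1.60 in 201B7, and neither was well above background in 253G1. Both were highest in the pre-culture. With the slide as a random block 4 HOX genes were called, and without any one culture other than 201B7 bFGF 5 to 13. Without the condition of well above background 13 HOX genes were called higher and 3 lower. After the normexp correction 5 were called, all higher.

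**Figure D3:**
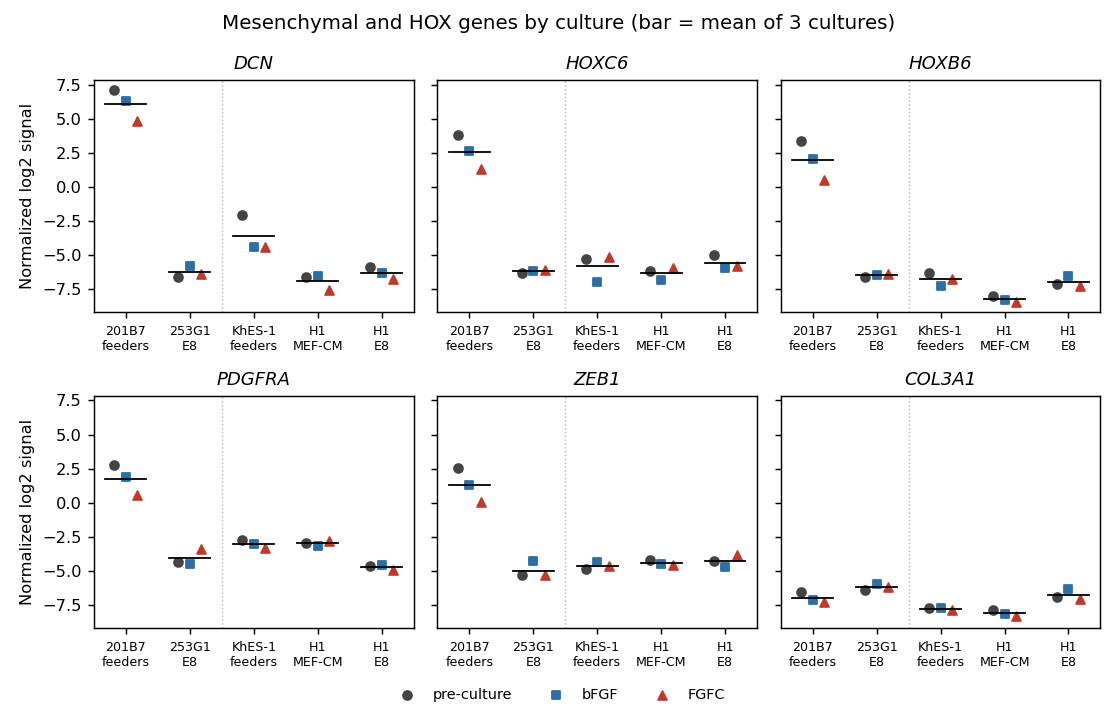
Normalized log2 signal (y axis, the same scale in all panels) of DCN, HOXC6, HOXB6, PDGFRA, ZEB1 and COL3A1 in the 3 cultures of each iPSC line and, right of the dotted line, of 3 ESC systems; symbols are cultures and bars are means of 3 cultures. In 5 of the 6 genes the 201B7 cultures stand above all other cultures shown, with the pre-culture highest and FGFC lowest (DCN 7.08, 6.28 and 4.85), while COL3A1 is below background in all 201B7 and 253G1 cultures.

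The 201B7 cultures differed among themselves in these same genes. Of the 624 genes called higher in 201B7, 462 (74.0%) were ordered pre-culture, bFGF, FGFC from high to low, against 2652 of the 12558 genes that were well above background on all 12 arrays (21.1%), and 8.17% had the opposite order, against 53.7% of those 12558. The 624 genes were chosen by these same values and needed to be well above background on the 201B7 arrays alone. Of them, 177 were not so on any array of 253G1. The 12558 genes passed another filter, so that these shares are a description and no test. The medians of the 624 genes in 201B7 were -0.39, -1.11 and -1.59, and their medians in 253G1 were -3.55, -3.46 and -3.47. Of the 70 genes that were at least 16-fold higher in 201B7, 68 had this order, with medians of 1.44, 0.25 and -1.15. Of the 398 genes called lower, 60.3% had the opposite order, a share near that of 53.7%, and their medians were -1.91, -1.74 and -1.54. For the genes called higher, the pre-culture of 201B7 was thus by its median the culture farthest from 253G1 and the FGFC culture the nearest.

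The same order was seen over all 21209 probes well above background on the 12 arrays. The FGFC culture of 201B7 correlated with the 3 cultures of 253G1 at r = 0.975 to 0.976, the bFGF culture at 0.960 to 0.963 and the pre-culture at 0.923 to 0.928. Within 201B7 the FGFC and bFGF cultures correlated at 0.990, and the FGFC culture and the pre-culture at 0.952, whereas the 3 cultures of 253G1 all correlated at 0.994. These correlations run over probes, and probes are no independent replicates. The pre-culture of 201B7 had the dimmest arrays.

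With 1 culture per arm the kind of FGF and the time in culture could not be tested. In 201B7, 226 of 13511 genes (1.67%) were 2-fold or more lower with FGFC than with bFGF, and 15 (0.111%) were higher. Of the 226, 152 were also called higher in 201B7 than in 253G1. In 253G1 the same comparison gave 63 lower (0.493%) and 33 higher (0.258%) of 12768 genes. The long-term cultures were 2-fold or more below the pre-culture for 928 genes (6.87%) and above it for 417 (3.09%) in 201B7, and below it for 18 (0.141%) and above it for 12 (0.094%) in 253G1. In both lines the pre-culture was hybridised on another slide than the long-term cultures.

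Genes of mesendoderm, the precursor of mesoderm and endoderm, had another pattern within 201B7. Of 20 measured members, 2 rose (CER1 and LHX1) and 0 fell, with a median of 0.62. Calls in this group were not particular to 201B7. In the ESC contrasts described below, 8 members were called higher in KhES-1 on feeders and 6 in H1 in MEF-conditioned medium, each against H1 in E8 Medium, and 0 lower. SOX17, a factor of endoderm, was at -4.97 in the pre-culture of 201B7 and at -0.84 and -0.85 after 50 days in bFGF and FGFC, against -5.84, -6.39 and -6.08 in 253G1. GATA6, also a factor of endoderm, was at -5.74, -1.79 and -1.86 against -6.27, -6.08 and -6.00. Both were high in the long-term cultures alone, and neither was called (difference 3.88, adjusted p = 0.0594, and 2.99, adjusted p = 0.0747).

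GSC, a gene of the organizer, was at -4.03, -1.65 and -1.88 in 201B7 against -5.94, -5.98 and -6.43, and was well above background on 5 of the 6 arrays of 201B7. CXCR4, a chemokine receptor of definitive endoderm, was at -1.49, 0.61 and 0.68 against -1.74, -1.53 and -2.03. EOMES and HHEX were likewise higher in the 2 long-term cultures of 201B7 than in its pre-culture. These genes were chosen after their values were seen, and with 1 culture per arm the step between pre-culture and long-term culture has no test. Without any one culture other than 201B7 bFGF, 1 to 9 members of the group were called higher. AFP, a marker of visceral endoderm, differed by 0.07 and its cultures overlapped.

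**Figure D4:**
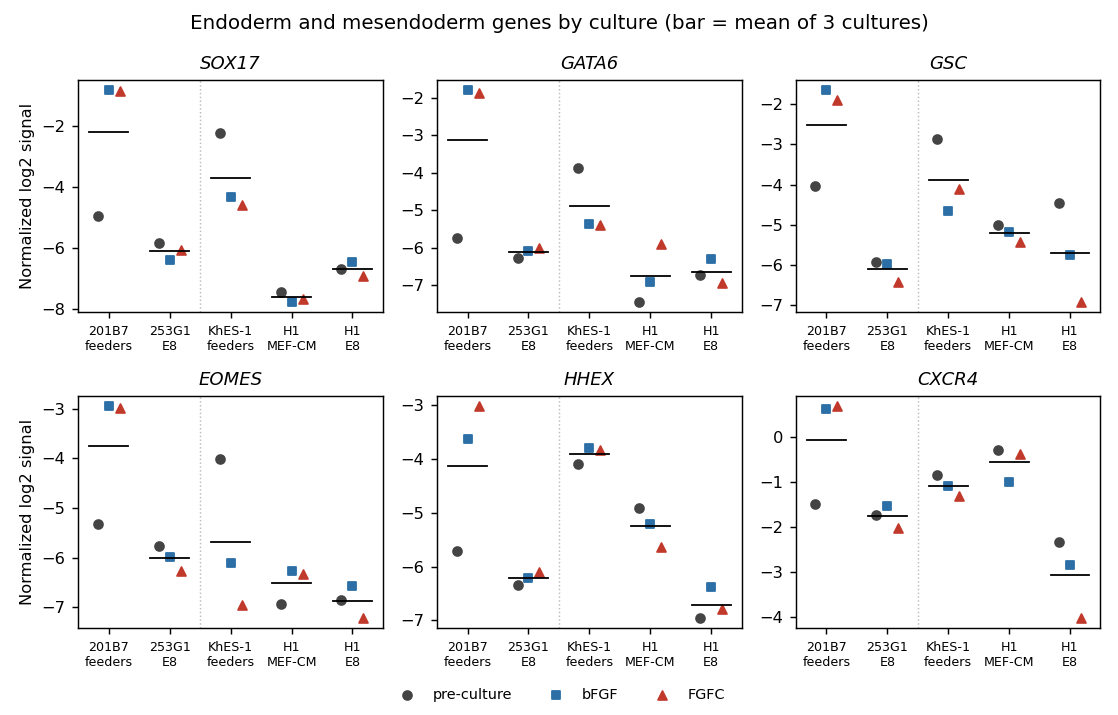
Normalized log2 signal (y axis, scale set for each gene) of SOX17, GATA6, GSC, EOMES, HHEX and CXCR4 in the 3 cultures of each iPSC line and, right of the dotted line, of 3 ESC systems; symbols are cultures and bars are means of 3 cultures. In all 6 genes the bFGF and FGFC cultures of 201B7 stand above its pre-culture, from -4.97 to -0.84 and -0.85 in SOX17, while the 253G1 cultures stay below the long-term 201B7 cultures.

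The largest fitted falls in 201B7 were in a mixed set of genes. TAFA5, a secreted chemokine-like protein, was at -4.30, -5.19 and -5.80 in 201B7, well above background on 2 of 6 arrays, and at 1.90, 1.63 and 1.72 in 253G1, a difference of -6.85 (SE 0.37, adjusted p = 0.00554). VWC2, a secreted BMP antagonist, and LMO3, a LIM-only transcriptional cofactor, were not well above background in 201B7. They were about 11.2-fold and 16.8-fold lower. PLA2G4C, a phospholipase, was at -1.86, -1.35 and -0.89 in 201B7 and at 2.60, 2.66 and 2.30 in 253G1, a difference of -3.88 (adjusted p = 0.00588). In TAFA5 and PLA2G4C all cultures of 201B7 were below all those of 253G1. GLT1D1, HTR1A (a serotonin receptor) and IL17C (an interleukin) fell by 4.12, 3.12 and 3.71.

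TAFA5 also belongs to 24 measured genes known to vary between human iPSC lines. Of these, 5 fell (TAFA5, NNAT, TSPYL5, ZNF667-AS1 and TCERG1L) and 1 rose (HHLA1), with a median of -0.62 that was -0.12 after the normexp correction. With the slide as a random block 1 of the 6 remained called, TAFA5. A second probe of TSPYL5, well above background on all 6 arrays of 201B7 and on 2 of 253G1, differed by 1.70 (adjusted p = 0.126). NNAT, an imprinted gene, was at 1.45, -0.08 and -0.74 in 201B7 and at 3.03, 3.03 and 2.68 in 253G1, a difference of -2.70 (adjusted p = 0.0304). HHLA1 was at -1.46, -1.07 and -1.32 against -3.54, -2.84 and -3.48, a difference of 2.00 (adjusted p = 0.013). Neither gene overlapped between the lines. PEG3, another imprinted gene, was at 4.29, 3.01 and 0.80 in 201B7 and at -3.87, -3.94 and -5.01 in 253G1, a difference of 6.97 (adjusted p = 0.0118).

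In each of the remaining groups at most 5 members were called, and over all genes 5.41% were called. In the WNT pathway 3 of 23 measured genes rose and 1 fell. SP5, a direct WNT target, was about 21.7-fold higher in 201B7 (adjusted p = 0.00661). The ligand WNT5A rose by 1.65, and SFRP2, a secreted WNT inhibitor, fell by 1.92. Of these 4 calls 3 remained with the slide as a random block. In the BMP group of 15 measured genes BMP2 and BMP7, which are ligands, rose by 2.32 and 1.10. The antagonist NOG was about 3.21-fold higher, and with the slide as a random block 0 of the calls of the BMP group remained. Among 26 genes of glycolysis and hypoxia 2 rose and 3 fell. Those that fell were ADM (adrenomedullin), by 1.88 (adjusted p = 0.00795), and the glycolytic enzymes ALDOC and GPI, by 1.27 and 1.14, and ADM was the 1 that remained called with the slide as a random block. TRIB3 and CHAC1, targets of the stress factor ATF4, fell by 1.44 and 1.23 among 19 measured genes. HMOX1, an enzyme of heme breakdown, fell by 1.13 and SOD2, a mitochondrial superoxide dismutase, rose by 1.53. None of these 4 genes was called with the slide as a random block. No integrin of 12 measured and no DNA methyltransferase or TET gene of 8 measured was called by limma. B2M, the light chain of MHC class I, was the only called reference gene, at 5.19, 4.23 and 3.55 in 201B7 against 1.89, 2.22 and 2.09 in 253G1 (adjusted p = 0.0254, 0.0735 with the slide as a random block).

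Related comparisons were available in ESCs. KhES-1 on feeders (5 ng/mL FGF) and H1 in MEF-conditioned medium (5 ng/mL) were each set against H1 in E8 Medium (100 ng/mL), with 3 cultures per system in a fit over 15 cultures. These 2 ESC contrasts share the H1 cultures in E8 Medium, and neither shares a culture with the iPSC contrast. KhES-1 and H1 are different lines, so that line, feeders, medium and FGF dose cannot be told apart in the first. The second holds the line but has no feeders. In it medium, FGF dose, passage (53 and 63 against 48 and 58) and days in culture (41 against 30) differ together. Each of the 3 ESC systems was hybridised on slides of its own, so that slide cannot be told apart from these factors in either contrast. In the KhES-1 contrast 2059 genes (10.9%) were called, 1003 higher on feeders (5.31%) and 1056 lower (5.59%). The iPSC calls set beside the ESC calls here are those of the fit over 6 cultures. In the fit over 15 cultures, which gave the ESC calls, the iPSC contrast called 1499 genes, 978 higher and 521 lower. The numbers of calls therefore do not rank the contrasts by size. Of the genes called higher in 201B7, 146 were also higher in KhES-1 on feeders (23.4% of 624 and 14.6% of 1003) and 37 were lower. Of the genes called lower in 201B7, 157 were also lower in KhES-1 (39.4% of 398 and 14.9% of 1056) and 9 were higher. In the contrast of H1 in MEF-conditioned medium 1630 genes (8.63%) were called, 813 higher (4.3%) and 817 lower (4.32%). It shared 119 higher genes with the iPSC contrast (19.1% of 624 and 14.6% of 813) and 138 lower genes (34.7% of 398 and 16.9% of 817), with 16 and 17 in opposite directions.

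DUSP6 was lower without E8 Medium in all 3 contrasts, by 3.10 in the iPSCs, by 3.71 in KhES-1 against H1 and by 2.72 between the media of H1. The difference between the iPSC contrast and either ESC contrast did not pass the threshold (0.61, SE 0.27, adjusted p = 0.0953 for KhES-1, and adjusted p = 0.397 for H1). SPRY4 fell by 2.25 in KhES-1 and differed by -0.46 between the media of H1, and its change in the iPSCs differed from the latter (interaction, adjusted p = 0.00375). ABCG1 fell by 3.71 and 2.95, SREBF1 by 1.63 and 1.21 and PLA2G4C by 4.57 and 4.52 in the KhES-1 and H1 contrasts. LEFTY2 rose by 6.24 and 3.85, NODAL by 4.65 and 4.14 and MT1G by 4.61 and 5.36. For LEFTY2 and NODAL the rise in the iPSCs was smaller than in KhES-1 against H1 (adjusted p = 0.033 and 0.011). In the group of Nodal genes 9 rose in each ESC contrast, and in that of the metallothioneins 10 rose in each. Of the 18 FGF/ERK targets, 7 were called lower and 0 higher in the KhES-1 contrast. Between the media of H1, 2 were lower and 2 higher, so that the fall of DUSP6 there does not stand for the group. Of the 15 genes of the naive state, 4 were higher and 1 lower in the KhES-1 contrast, and 6 higher and 0 lower in that of H1.

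Several of the genes that rose most between the iPSC lines were not called in the ESC contrasts. HOXC6 differed by -0.22 (adjusted p = 0.755) in KhES-1 on feeders against H1 and by -0.75 (0.363) between the media of H1, ZEB1 by -0.37 (0.542) and -0.15 (0.857), and HIC1 by -1.22 (0.0621) and -0.74 (0.313). DCN rose by 2.67 in KhES-1 on feeders (adjusted p = 0.00392) and differed by -0.59 between the media of H1 (0.521). Other members of these groups were called in the ESC contrasts. Of 28 measured fibroblast genes, 9 were higher and 3 lower in the KhES-1 contrast, and 12 higher and 1 lower in the H1 contrast. Of the 15 cadherins and regulators of epithelial to mesenchymal transition 3 were higher in each, and of the 38 HOX genes 2 in each, with 0 lower. Over all genes 5.31% and 4.3% were called higher. The change in the iPSCs was larger than the KhES-1 contrast in DCN, HOXC6 and ZEB1 (interaction, adjusted p = 3.89e-05, 3.6e-05 and 8.89e-05), and by how much was not measured, since 253G1 was well above background on 1, 0 and 3 of 6 arrays for these genes. The 70 genes at least 16-fold higher in 201B7 had a median of -0.34 in the KhES-1 contrast and -0.10 in the H1 contrast, and since they were chosen by the size of their difference between the iPSC lines, these medians are a description. Over all 18897 genes the iPSC contrast differed from the KhES-1 contrast in 5519 (29.2%) and from the H1 contrast in 1941 (10.3%). These counts rest on an adjusted p under 0.05 alone, with no condition on fold or background, and are not to be set beside the shares of called genes. By adjusted p alone the iPSC contrast itself passed in 6311 genes in the fit over 15 cultures.

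**Figure D5:**
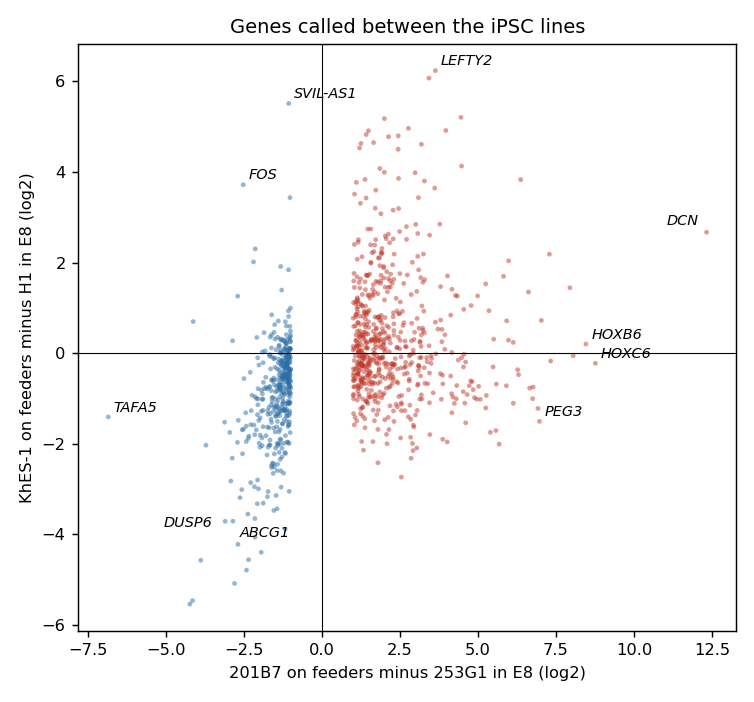
Difference between 201B7 on feeders and 253G1 in E8 Medium (x axis, log2) against the difference between KhES-1 on feeders and H1 in E8 Medium (y axis, log2) for the genes called between the iPSC lines; red points were higher and blue points lower in 201B7. DUSP6 and ABCG1 are low on both axes and LEFTY2 is high on both, whereas HOXB6 and HOXC6 are near 0 on the y axis and FOS lies at -2.52 and 3.72.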

How the data were processed

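RNA of each culture was hybridised by the authors to 2 one-colour Agilent human expression arrays, which were read with Feature Extraction 10.7.3.1. The authors deposited, per the file headers, background-subtracted processed intensity values on a linear scale, not scaled between arrays, with yes or no marks for spots well above background, saturated or uneven.

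From these intensities, spots marked as outliers were left out, spots of a probe were averaged, values under 1 were set to 1, and the log2 of the signal minus the array's 75th percentile was taken, after the scaling named in the study's methods. No spot was saturated. A probe was well above background where at least 0.5 of its spots were. Of 42405 probes, 1569 on X or Y were left out. Gene symbols came from RefSeq through the probes' accessions: 24633 of the 40836 probes kept have one, and 6769 have no known chromosome. A gene with several probes was given by its brightest, by mean signal on the 12 arrays.

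Lines were compared with limma 3.58.1 in R 4.3.3 (lmFit, then eBayes), with p adjusted by Benjamini-Hochberg across the probes kept and the cultures as replicates. Nothing says that duplicate arrays came from separate cultures, so they were averaged, and the p-values measure the spread between the 3 FGF arms. The arms of the lines did not deviate together from their line means (correlations of 0.11, -0.02 and -0.03), so no pairing was used. ESC contrasts and the differences between contrasts were fitted over 15 cultures. The fit was tested on simulated data for the comparison of 201B7 with 253G1 over 40836 probes. It found 43 of 100 planted 4-fold changes and 0 of 100 planted 2-fold changes, and called 1 of 40636 probes without one. Noise was drawn independently for each probe and culture, with no effect of slide, so that these counts do not measure false calls in the data.

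Genes named were the 12 largest rises and falls, up to 4 called members of each of 29 gene lists by size, every called FGF/ERK target, DUSP6, POU5F1, SOX2, NANOG, KLF4, MYC and GAPDH, and the 5 largest differences each way from the KhES-1 contrast. Other genes were chosen after their values were seen. Some genes that meet this rule are not reported here. The comparison and the lists were chosen with earlier results of these data known. Alternatives were another background correction (normexp, offset 50), quantile normalization, other rules on dim probes, single arrays, each culture left out, the FGF arm or the slide as a block, and other fold thresholds.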

Additional observations from a re-analysis of the deposited data

Results flagged for a closer look

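In 10 genes called between the iPSC lines the change differed most from the change between KhES-1 on feeders and H1 in E8 Medium, by the test of the difference between both contrasts over 15 cultures. The iPSC contrast minus the KhES-1 contrast was 9.66 for DCN, 8.99 for HOXC6, 8.48 for PEG3, 8.26 for HOXB6 and 8.15 for HIC1. In the opposite direction it was -6.58 for SVIL-AS1, an antisense RNA, -6.24 for FOS, -5.44 for TAFA5, -4.82 for GLT1D1 and -4.46 for BCL2L10, a member of the BCL2 family. HOXC6, HOXB6 and HIC1 were not well above background on any array of 253G1, DCN was on 1 and PEG3 on 3 of its 6 arrays, and TAFA5 was on 2 of 6 arrays of 201B7, so that the sizes for these genes are fitted values and not measured differences.

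SVIL-AS1, FOS and BCL2L10 differed in sign between the contrasts. SVIL-AS1 fell by 1.06 in 201B7 and rose by 5.51 in KhES-1, FOS fell by 2.52 (a call lost with the slide as a random block, adjusted p = 0.0735) and rose by 3.72, and BCL2L10 fell by 1.02 and rose by 3.44. The fall of BCL2L10 was 0.22 after the normexp correction (limma, adjusted p = 0.463). It was not called with the slide as a random block (0.11) or in the fit over 15 cultures (0.074), so that its change of sign rests on a weak fall. For SVIL-AS1 the iPSC contrast did not differ past the threshold from the contrast between the media of H1 (limma, adjusted p = 0.514). For PEG3 a second probe, not well above background on any array, differed by -0.76. These genes are those with the largest differences among all called genes, so their sizes are a description of the extremes.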

How the results depend on the processing

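Between the lines 2217 probes were called. The count was 467 after the normexp correction, 1078 with the first array of each culture alone, 190 with the slide as a random block, 3427 with all 15 cultures in the fit and 693 at a 4-fold threshold. With the FGF arm as a replicate block 1277 probes were called, although the arms did not deviate together. Leaving out 1 culture at a time gave 0 to 4393 calls: 0 without 201B7 bFGF, 282 without 253G1 bFGF, 292 without 253G1 pre-culture, 463 without 253G1 FGFC and 4393 without 201B7 FGFC. The cause was not tested. The other settings gave 1607 to 3220, quantile normalization 1885. For the differences between contrasts an adjusted p under 0.05 was the only condition. The difference from the KhES-1 contrast passed in 13117 probes, and in 9915 to 16645 with 1 culture left out. The difference from the H1 contrast passed in 3674 probes, in 2067 to 5911 with 1 culture left out (2067 without H1 MEF-CM FGFC, 2380 without 201B7 bFGF, 5911 without 201B7 FGFC) and in 6872 with all H1 cultures in E8 Medium.

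Of 97 genes named by rule, 93 were called. Over all settings 436 gene results lost the call, 57 of them with the slide as a random block and 93 without 201B7 bFGF, and 5 changed sign. NANOG (-0.03) was at 0.14 after quantile normalization and 0.034 with the second array alone, and between -0.12 and 0.13 with 1 culture left out (0.13 without the 201B7 pre-culture, 0.026 without the 253G1 pre-culture), and POU5F1 (0.32) was at -0.11 after quantile normalization. In 9 named genes another probe pointed the opposite way, and in 4 of these that probe was not well above background on any array. The arrays of 201B7 pre-culture were the dimmest, which limits values near background there.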
